A study of Mus musculus with 6 samples.

Results

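The collagen genes are the protein-coding genes of the deposited table whose symbol is Col, a type number, the letter a and a chain number. There were 35 of them among 17924 genes, 14362 of which were protein coding. By class, 10 encode fibrillar chains (Col1a1, Col1a2, Col3a1, Col5a1, Col5a2, Col5a3, Col11a1, Col11a2, Col24a1 and Col27a1), and 4 encode basement membrane chains (Col4a1, Col4a2, Col4a5 and Col4a6). Another 5 encode FACIT collagens, the fibril-associated collagens with interrupted triple helices (Col9a3, Col12a1, Col14a1, Col16a1 and Col20a1). The other 16 are Col6a1 to Col6a6, Col7a1, Col8a1, Col8a2, Col15a1, Col17a1, Col18a1, Col23a1, Col25a1, Col26a1 and Col28a1.

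Collagens are secreted as trimers of chains wound into a triple helix, and each type is built from its own set of chains. Fibrillar collagens form the tension-bearing fibrils of the dermis, FACIT collagens sit on the fibril surface, type IV collagen forms the sheet of the basement membrane, and type VI collagen forms beaded filaments around cells. Dermal fibroblasts are the main source of fibrillar collagen in skin, whereas mature adipocytes wrap themselves in a basement membrane rich in collagens IV and VI.

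RNA-seq was performed on bulk RNA from dermal cells of newborn (P0) C57BL/6J mice, isolated from dorsal skin as fibroblasts and kept for 14 days in adipocyte differentiation medium. Nelfb encodes a subunit of NELF, the negative elongation factor that acts on RNA polymerase II near promoters. CTL cells carried Pdgfra-Cre with no floxed Nelfb allele (wt/wt) or with a single one (fl/wt), and which of these each library had is not given in the labels. Nelfb-/- cells carried Pdgfra-Cre with both Nelfb alleles floxed (fl/fl), so that Cre was present in both groups. The deletion was limited to cells in which the Pdgfra promoter had driven Cre, and other cells of the culture would keep Nelfb. There were 3 biological replicates in each group, and the labels call the cells adipocytes.

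Expression is given in CPM (counts per 1e+06 of the reads that fell on the genes of the table), which does not correct for gene length. Depth, read from the size of the smallest steps between values, lay between 17.2 M and 29.4 M reads (M, 1e+06), and 3 reads, taken as the floor of detection, were worth 0.102 to 0.175 CPM. The filter on low values kept genes whose mean reached 10 reads at a common depth of 22.3 M (0.448 CPM). They were tested with limma on log2(reads + 1), and a gene was called at an adjusted p of at most 0.05 (Benjamini-Hochberg over all 16251 genes tested) and a change of at least 2-fold. Log2 fold changes are Nelfb-/- relative to CTL with their standard error (SE). The added read makes them an underestimate for genes near the floor. Nelfb itself measured 17.3 to 22.3 CPM over the CTL libraries and 3.90 to 5.55 over the Nelfb-/- libraries, which gave -1.99 on the log2 scale (limma, SE 0.22, adjusted p = 0.0050). On the leading principal component, which held 59.9% of the variance, the groups were separate. On the next (27.7%) CTL replicate 3 (-74.9) and Nelfb-/- replicate 1 (79.2) were the extremes, and the other 4 libraries lay between -29.6 and 21.9. The defining adipocyte markers were present in all libraries, with a sum over 7 markers of 17738 to 27840 CPM over the CTL libraries and 10182 to 21443 over the Nelfb-/- libraries. Fabp4 made up most of the sum in CTL replicate 1 (17827 of 27840 CPM). Of the 7 markers Retn was called lower (log2 fold change -2.12, limma, adjusted p = 0.013) and Lep higher (5.26, limma, adjusted p = 0.014, with CTL values as low as 0.180 CPM). Adipoq (-1.07), Plin1 (-1.02) and Fabp4 (-1.04) were lower but not called (limma, adjusted p = 0.14, 0.12 and 0.24). Of these, Adipoq and Plin1 had an unadjusted p under 0.05. The groups did not overlap in Plin1 (782 to 1196 CPM in CTL, 286 to 710 in Nelfb-/- cells) or Fabp4 (12706 to 17827 and 4571 to 10808 CPM). Car3 was higher (0.80, limma, adjusted p = 0.24) and Cidec changed little (0.03, limma, adjusted p = 0.97), and neither was called.

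Of the 35 collagen genes, 33 passed the filter on low values, and 6 of these were called higher in Nelfb-/- cells: Col6a5, Col25a1, Col17a1, Col14a1, Col28a1 and Col27a1. Col6a5, Col17a1, Col6a6 and Col9a3 had CTL means of 0, 0.213, 0.235 and 0.343 CPM, under the filter of 0.448 CPM. They passed it only through the Nelfb-/- libraries, where they were higher, and remain in the counts that follow. With limma 0 were called lower, and of the 4 with a negative fold change 2 (Col4a5 and Col4a6) had an unadjusted p under 0.05. Over all genes tested, 7.58% were called higher and 3.64% lower (11.2% in either direction), and with quantile scaling the same limits gave 1014 higher and 834 lower in place of 1232 and 592. The log2 fold change was positive in 29 of the 33 collagen genes, against 54.6% of all genes, and its median was 0.94, against 0.07 over all genes. The members whose 3 Nelfb-/- libraries all lay above the 3 CTL libraries numbered 10 (all genes, 22.0%), those whose Nelfb-/- libraries all lay below numbered 2 (all genes, 16.1%), and in the other 21 the groups overlapped (all genes, 61.9%). Because bulk RNA was sequenced, fewer cells of a type and less RNA per cell cannot be told apart in any of these values.

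The 6 called genes were all of low or moderate level, and 0 of the 16 members with a mean of at least 100 CPM were called with limma (4 at an unadjusted p under 0.05, Col3a1, Col8a1, Col12a1 and Col18a1). These 16 abundant genes all had a positive log2 fold change, between 0.32 and 2.44, and in all 16 CTL replicate 3 was the highest CTL library and Nelfb-/- replicate 1 the lowest Nelfb-/- library. Over all genes tested, CTL replicate 3 was highest in its group in 47.9%, Nelfb-/- replicate 1 was lowest in its group in 45.0%, and both held in 32.5%. Over the 33 collagen genes these counts were 28, 27 and 26. The count of collagen genes called higher turned on single libraries, as did that of all genes. It was 12 without CTL replicate 3 (all genes, 1703 in place of 1232) and 9 without Nelfb-/- replicate 1 (all genes, 1246). It was 1 without CTL replicate 1 (all genes, 629), 2 without CTL replicate 2 (all genes, 536), 0 without Nelfb-/- replicate 2 (all genes, 625) and 1 without Nelfb-/- replicate 3 (all genes, 290).

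**Figure D1:**
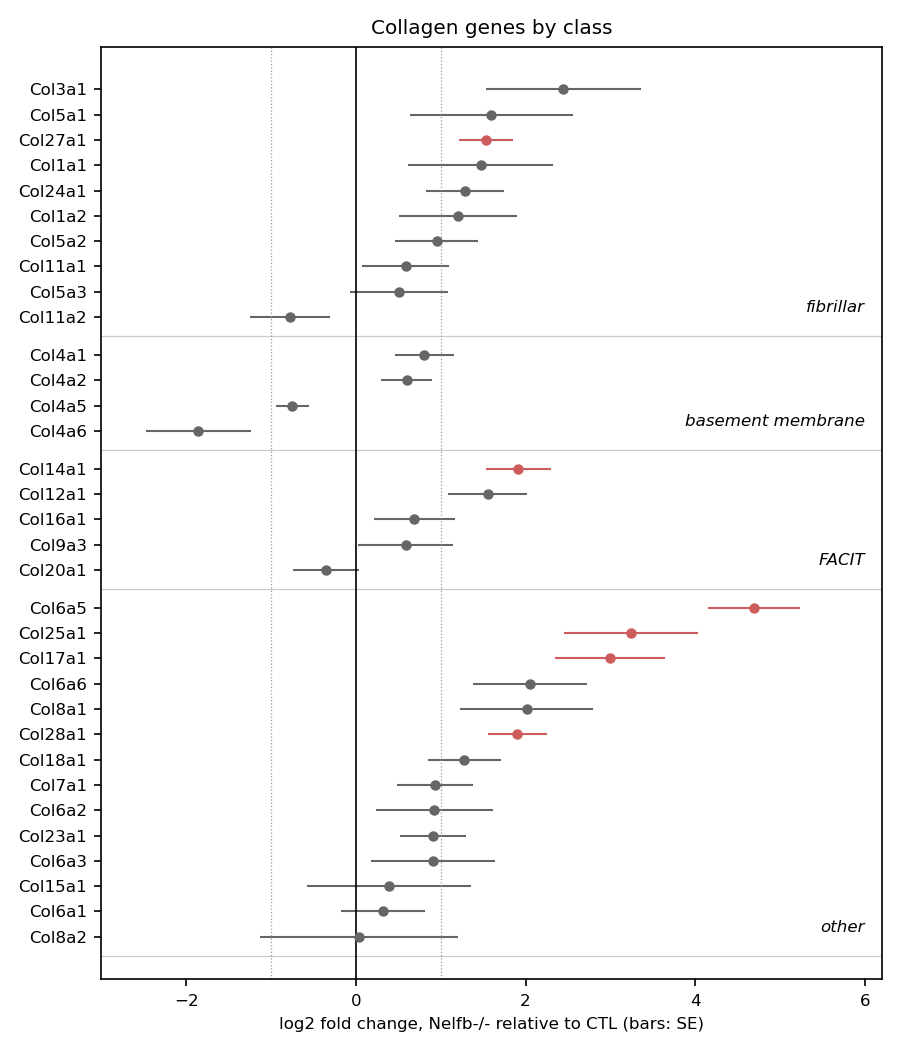
Log2 fold change of the 33 tested collagen genes in Nelfb-/- relative to CTL cells, by class, with bars for the SE, dotted lines at a 2-fold change in each direction and the 6 called genes in red. Among the genes with reads in CTL cells the fold changes ranged from -1.86 for Col4a6 to 3.25 for Col25a1, and the point of Col6a5, which had no CTL read, depends on the added read. The abundant fibrillar chains Col1a1, Col1a2, Col3a1 and Col5a1 combined estimates above 2-fold with wide bars, whereas Col5a2 (0.95) and Col5a3 (0.51) lay under 2-fold.

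Reads on the collagen genes together made up 1.34%, 1.31% and 4.0% of all reads in CTL replicates 1, 2 and 3 and 2.27%, 5.86% and 6.21% in Nelfb-/- replicates 1, 2 and 3. The means were 2.21% ± 1.54 (SD, n = 3) and 4.78% ± 2.18 (SD, n = 3), and the groups overlapped, since CTL replicate 3 exceeded Nelfb-/- replicate 1. The share of the fibrillar class overlapped in the same way, at 0.518%, 0.448% and 1.97% in CTL and 0.861%, 3.40% and 3.72% in Nelfb-/- libraries. The groups did not overlap in the basement membrane class, which took 0.408% to 0.663% of reads in CTL and 0.707% to 0.871% in Nelfb-/- cells. Nor did they overlap in the FACIT class, with 0.101% to 0.258% in CTL and 0.282% to 0.556% in Nelfb-/- cells. The 16 other collagens overlapped, at 0.313%, 0.299% and 1.11% in the CTL libraries and 0.419%, 1.12% and 1.07% in the Nelfb-/- libraries.

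Markers of other cell types were set beside these shares. The sum of 5 fibroblast markers (Pdgfra, Dpt, Lum, Dcn and Thy1) was 1034, 993 and 1557 CPM in the CTL libraries and 1541, 2207 and 2383 in the Nelfb-/- libraries, with 0 of 5 called with limma (3 at an unadjusted p under 0.05). As for the collagen reads, CTL replicate 3 was the highest CTL library and slightly exceeded Nelfb-/- replicate 1. This held for the sum and not for each marker, since Dcn was lowest in CTL replicate 3, at 467, 501 and 310 CPM in the CTL libraries and 348, 404 and 440 in the Nelfb-/- libraries. The sum of 6 macrophage markers was 540, 294 and 147 CPM in the CTL libraries and 4996, 1464 and 2485 in the Nelfb-/- libraries, with 5 of 6 called higher, and was thus lowest in CTL replicate 3 and highest in Nelfb-/- replicate 1. The sum of 5 pericyte markers was 90.1, 105 and 145 CPM in the CTL libraries and 118, 221 and 255 in the Nelfb-/- libraries, with 0 of 5 called with limma (2 at an unadjusted p under 0.05), and CTL replicate 3 again lay between Nelfb-/- replicate 1 and the other Nelfb-/- libraries. Not each pericyte marker did so. Mcam was lowest in CTL replicate 3, at 54.3, 68.4 and 50.5 CPM in the CTL libraries and 66.6, 139 and 152 in the Nelfb-/- libraries. All 5 melanocyte markers were called higher, with a sum of 1.22 to 1.43 CPM over the CTL libraries and 30.3 to 72.1 over the Nelfb-/- libraries. The sums overlapped for the lists of endothelial cells (1 of 5 called higher), smooth muscle and myofibroblasts (0 of 5 called with limma, 1 at an unadjusted p under 0.05) and osteoblasts (0 of 3 called with limma, 1 at an unadjusted p under 0.05). The part of any of these cells in the collagen values was not tested.

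**Figure D2:**
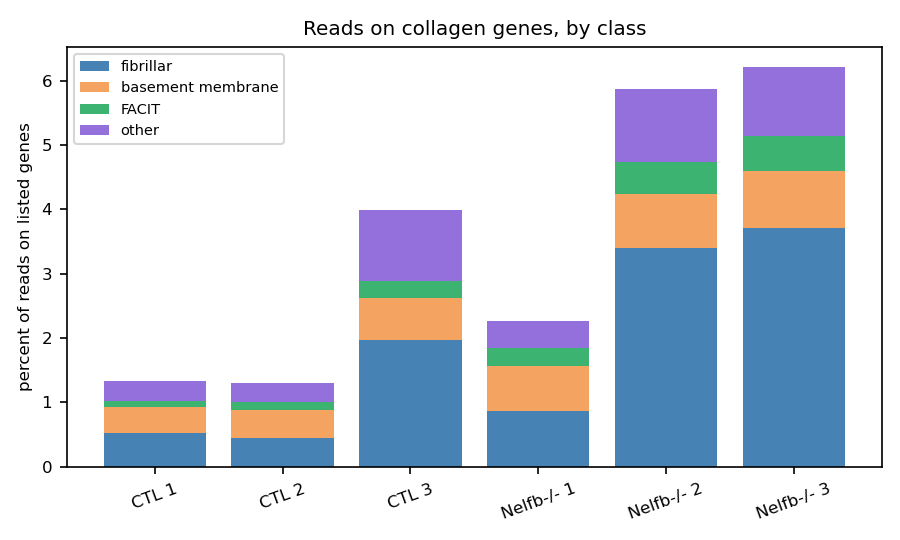
Percent of reads on collagen genes in each of the 6 libraries, stacked by class (bars start at 0). The total was 1.34%, 1.31% and 4.0% in CTL replicates 1 to 3 and 2.27%, 5.86% and 6.21% in Nelfb-/- replicates 1 to 3, and the fibrillar class was the largest in every library.

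Among the fibrillar collagens, 1 of 10 was called higher (Col27a1), 9 of 10 had a positive log2 fold change, and the class median was 1.25. Col1a1 (chromosome 11 from 94936224 to 94953042, GRCm38), the α1 chain of type I collagen, was at 1673, 1452 and 7343 CPM in CTL libraries 1 to 3, against 2727, 11073 and 12571 CPM in Nelfb-/- libraries 1 to 3. Its partner Col1a2 was at 1651, 1387 and 5043 CPM in the CTL libraries and 2357, 7360 and 8179 in the Nelfb-/- libraries. In both genes the CTL range ran past Nelfb-/- replicate 1, and the log2 fold changes of 1.47 (limma, SE 0.86, adjusted p = 0.29) for Col1a1 and 1.21 (limma, SE 0.70, adjusted p = 0.28) for Col1a2 did not pass the test.

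Col3a1, the single chain of type III collagen, which is woven into type I fibrils and is abundant in young skin, was at 682, 571 and 2979 CPM in the CTL libraries and 1789, 10132 and 10315 in the Nelfb-/- libraries. It had the largest log2 fold change of the fibrillar class, 2.44 (limma, SE 0.91, adjusted p = 0.12), but CTL replicate 3 again exceeded Nelfb-/- replicate 1. Without CTL replicate 3 its adjusted p was 0.047, without Nelfb-/- replicate 1 it was 0.041, and without any other single library it was 0.29 to 0.32. The RefSeq promoter of Col3a1 (GRCm38.p6, plus strand, chr1:45311288-45311537), the 250 bases before the start, is shown because this gene had the largest fold change of the abundant chains, with a TATAAA motif in capitals that begins 117 bases before the start.
Col3a1: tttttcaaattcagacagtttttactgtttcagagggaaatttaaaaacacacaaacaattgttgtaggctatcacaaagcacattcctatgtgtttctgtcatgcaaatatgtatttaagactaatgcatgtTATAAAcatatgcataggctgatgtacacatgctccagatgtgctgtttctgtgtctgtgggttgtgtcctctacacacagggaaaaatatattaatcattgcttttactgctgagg

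The 3 chains of type V collagen, which is buried in type I fibrils and limits their width, differed in how far CTL replicate 3 reached. Col5a1 was at 367, 298 and 2268 CPM in the CTL libraries and 653, 3040 and 3449 in the Nelfb-/- libraries, with a log2 fold change of 1.60 (limma, SE 0.96, adjusted p = 0.30). Col5a2 was at 569, 558 and 1276 CPM in the CTL libraries and 790, 1802 and 2057 in the Nelfb-/- libraries (log2 fold change 0.95, SE 0.49, limma, adjusted p = 0.23). Col5a3 was at 188, 175 and 670 CPM in the CTL libraries and 244, 539 and 481 in the Nelfb-/- libraries (log2 fold change 0.51, SE 0.58, limma, adjusted p = 0.59). The groups overlapped in all 3 genes, and in Col5a3 CTL replicate 3 was the highest of all 6 libraries.

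Col27a1, a fibrillar chain best known from cartilage, was the called member of this class. It was at 4.65, 3.83 and 6.49 CPM in the CTL libraries and 10.1, 14.5 and 19.4 in the Nelfb-/- libraries, means of 4.99 ± 1.37 and 14.7 ± 4.64 CPM (SD, n = 3). The 3 Nelfb-/- values were all above the 3 CTL values, with a log2 fold change of 1.53 (limma, SE 0.31, adjusted p = 0.024), although the adjusted p was 0.079 to 0.096 without CTL replicate 1, CTL replicate 2, Nelfb-/- replicate 2 or Nelfb-/- replicate 3. The sum of the chondrocyte markers in the table (Acan, Comp, Cnmd and Sox9) was 6.31 to 12.7 CPM over the CTL libraries and 7.97 to 28.9 over the Nelfb-/- libraries, with 1 of 4 called higher (Acan). The sum joins markers that went opposite ways, since Acan was at 0.0902, 0.0467 and 0.680 CPM in the CTL libraries and 1.61, 7.04 and 7.51 in the Nelfb-/- libraries, whereas Cnmd was at 5.28, 5.04 and 0.068 CPM in the CTL libraries and 0.0474, 0 and 0 in the Nelfb-/- libraries and was not called. The part of these markers in the Col27a1 value was not tested.

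Of the remaining fibrillar chains, Col24a1 also had groups that did not overlap, at 0.586, 0.513 and 1.05 CPM in the CTL libraries and 2.61, 1.11 and 1.80 in the Nelfb-/- libraries, but its log2 fold change of 1.29 (limma, SE 0.45, adjusted p = 0.11) did not pass the test. The chains of type XI collagen, the partner of cartilage fibrils, differed in the sign of the log2 fold change, with 0.59 for Col11a1 (25.5 to 81.0 CPM in CTL, 36.4 to 96.2 CPM in Nelfb-/- cells, limma, adjusted p = 0.48) and -0.78 for Col11a2 (2.04 to 5.77 and 1.51 to 2.89 CPM, limma, adjusted p = 0.31). In both, the groups overlapped.

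**Figure D3:**
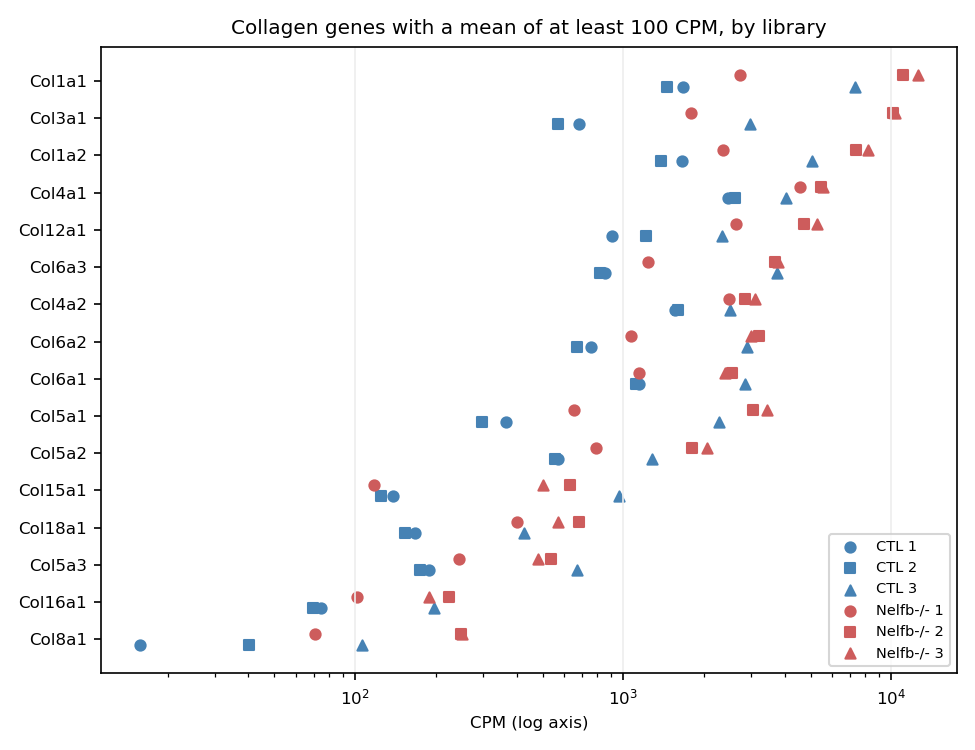
CPM on a log axis of the 16 collagen genes with a mean of at least 100 CPM, with 1 point for each library (blue, CTL; red, Nelfb-/-; circle, square and triangle for replicates 1, 2 and 3). In all 16 genes the CTL triangle was the highest blue point and the Nelfb-/- circle the lowest red point, and the groups overlapped in 14 of the 16.

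The basement membrane collagens split by pair of chains. Col4a1 and Col4a2, the chains of the widespread type IV trimer, ranked 2 and 4 among the collagen genes of CTL cells by mean CPM per kb of exon. Col4a1 was at 2463, 2612 and 4033 CPM in the CTL libraries and 4554, 5458 and 5567 in the Nelfb-/- libraries, so that all Nelfb-/- libraries lay above all CTL libraries, with a log2 fold change of 0.81 (limma, SE 0.35, adjusted p = 0.16). Col4a2 was at 1560, 1598 and 2508 CPM in the CTL libraries and 2475, 2848 and 3096 in the Nelfb-/- libraries, with a small overlap (log2 fold change 0.60, SE 0.30, limma, adjusted p = 0.22). Neither passed the test. The genes stand head to head on chromosome 8, where Col4a1 (11198423 to 11312826, minus strand) and Col4a2 (11312805 to 11449287, plus strand) share 22 bases.

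Col4a5 and Col4a6, which form other type IV trimers and stand head to head on chromosome X, were lower in every Nelfb-/- library than in any CTL library, the only collagen genes of which this was true. Col4a5 was at 58.2, 69.7 and 88.3 CPM in the CTL libraries and 41.8, 37.8 and 47.8 in the Nelfb-/- libraries, means of 72.0 ± 15.2 and 42.5 ± 5.05 CPM (SD, n = 3). Its log2 fold change of -0.75 (limma, SE 0.19, adjusted p = 0.044) passed the limit on p but not that on fold, and without any single library its adjusted p was 0.052 to 0.14. Over all genes, 15.8% passed the limit on p alone, and 7 of the 33 collagen genes did. In the higher direction these were the 6 called genes, where 9.96% of all genes passed it.

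Col4a6 was at 1.04, 2.24 and 3.43 CPM in the CTL libraries and 0.237, 0.699 and 0.816 in the Nelfb-/- libraries, a log2 fold change of -1.86 (limma, SE 0.62, adjusted p = 0.091), which was not called. A processed pseudogene listed within it on the opposite strand, Gm15079, had a mean of 2.39 CPM, above the 1.41 CPM of Col4a6 itself, and since no strand setting is stated, reads of the 216 shared bases cannot be assigned. The region between the genes (1308 bases) was free of other listed genes at the windows shown here. They are the 250 bases before the RefSeq start of Col4a6 (GRCm38.p6, minus strand, chrX:141474077-141474326) and, of the window of Col4a5, the 216 bases that lie outside the gene's listed span (plus strand, chrX:141475169-141475384), printed because the Nelfb-/- libraries lay below CTL in this pair and not in the other basement membrane chains. Capitals mark a GC box (GGGCGG or its complement CCGCCC) for Col4a6 and a CCAAT motif for Col4a5. The window of Col4a5 also held a GC box that begins 30 bases before the RefSeq start, in the 34 bases left out here.
Col4a6: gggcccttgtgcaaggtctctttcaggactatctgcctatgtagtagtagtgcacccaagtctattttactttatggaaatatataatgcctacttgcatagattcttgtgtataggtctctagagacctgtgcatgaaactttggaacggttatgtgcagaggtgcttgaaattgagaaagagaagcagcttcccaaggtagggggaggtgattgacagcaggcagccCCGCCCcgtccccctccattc
Col4a5: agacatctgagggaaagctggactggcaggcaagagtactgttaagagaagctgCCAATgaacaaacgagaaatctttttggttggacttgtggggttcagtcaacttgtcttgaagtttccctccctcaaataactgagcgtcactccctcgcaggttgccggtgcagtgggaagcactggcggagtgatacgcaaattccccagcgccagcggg

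Among the FACIT collagens 1 of 5 was called higher, and the class median was 0.69 (1.45 without Nelfb-/- replicate 1). Col14a1 (chromosome 15 from 55307750 to 55520803), which binds fibril surfaces and is expressed in dermal fibroblasts, was at 23.0, 14.7 and 43.5 CPM in the CTL libraries and 82.9, 112 and 85.0 in the Nelfb-/- libraries. The means were 27.0 ± 14.9 and 93.3 ± 16.2 CPM (SD, n = 3), the groups were apart, and Nelfb-/- cells differed from CTL by 1.91 on the log2 scale (limma, SE 0.39, adjusted p = 0.023). Without CTL replicate 1, CTL replicate 2, Nelfb-/- replicate 2 or Nelfb-/- replicate 3 the adjusted p was 0.057 to 0.083.

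Col12a1, its close relative, was far more abundant per kb of exon, and its CPM were 907, 1216 and 2336 CPM in the CTL libraries and 2624, 4717 and 5281 in the Nelfb-/- libraries. The groups did not overlap, and the log2 fold change of 1.55 (limma, SE 0.46, adjusted p = 0.069) missed the limit. Its adjusted p was 0.024 without CTL replicate 3, 0.046 without Nelfb-/- replicate 1 and 0.18 to 0.22 without any of the others. The other FACIT genes overlapped between groups. Col16a1 was at 69.7 to 198 CPM over the CTL libraries and 101 to 225 over the Nelfb-/- libraries (log2 fold change 0.69, limma, adjusted p = 0.37). Col9a3, a cartilage chain, stayed between 0.240 and 1.09 CPM in all libraries (log2 fold change 0.59, limma, adjusted p = 0.51), and Col20a1 between 2.68 and 5.74 CPM (log2 fold change -0.35, limma, adjusted p = 0.58). Both overlap a more abundant listed gene, Col20a1 by 741 bases with 9230112E08Rik on the same strand (mean 11.9 CPM, against 4.28 for Col20a1) and Col9a3 by 234 bases with Tcfl5 on the opposite strand (mean 2.40 CPM, against 0.475 for Col9a3), so that shared reads cannot be assigned.

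Of the 16 other collagens, 14 were tested, 4 of these were called higher (Col6a5, Col25a1, Col17a1 and Col28a1), all 14 had a positive log2 fold change, and the median was 1.11. Type VI collagen is assembled from the α1 and α2 chains with a larger further chain, α3 or a chain of the Col6a4 to Col6a6 group. Col6a1 was at 1144, 1116 and 2835 CPM in the CTL libraries and 1145, 2549 and 2401 in the Nelfb-/- libraries (log2 fold change 0.32, SE 0.50, limma, adjusted p = 0.70). Col6a2 was at 759, 674 and 2898 CPM in the CTL libraries and 1065, 3203 and 2985 in the Nelfb-/- libraries (log2 fold change 0.93, SE 0.69, limma, adjusted p = 0.40). Col6a3 was at 852, 815 and 3756 CPM in the CTL libraries and 1235, 3680 and 3782 in the Nelfb-/- libraries (log2 fold change 0.91, SE 0.73, limma, adjusted p = 0.44). The groups overlapped in all 3, with CTL replicate 3 far above the other CTL libraries.

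The genes Col6a4, Col6a5 and Col6a6 lie next to each other on chromosome 9, all on the minus strand, with gaps of 27917 and 28810 bases. Col6a5 (105856078 to 105960643) had no read in any CTL library and was at 0.616, 1.69 and 1.31 CPM in Nelfb-/- libraries. Against a floor of 3 reads per library it was at least 9.56-fold higher in Nelfb-/- cells, and it was called with limma (adjusted p = 0.0057). Its fitted log2 value of 4.69 is set by the added read, being 5.66 with 0.5 reads and 2.59 with 5 reads added, and is no measure of the fold. At the bound, too, its change lies above the class median. The call remained without each library except Nelfb-/- replicate 2, where the gene fell under the filter and was not tested. The 250 bases before its RefSeq start (GRCm38.p6, minus strand, chr9:105960644-105960893) are shown because no CTL read fell on this gene, with a GC box (GGGCGG) in capitals that begins 57 bases before the start.
Col6a5: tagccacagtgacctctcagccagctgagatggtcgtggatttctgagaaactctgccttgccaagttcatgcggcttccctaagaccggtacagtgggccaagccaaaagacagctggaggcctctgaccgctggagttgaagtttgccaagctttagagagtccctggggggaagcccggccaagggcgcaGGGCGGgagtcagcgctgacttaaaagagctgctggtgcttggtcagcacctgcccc

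Its neighbour Col6a6 was at 0.0902, 0.140 and 0.476 CPM in the CTL libraries and 0.522, 0.990 and 1.55 in the Nelfb-/- libraries. These groups too were apart, but the log2 fold change of 2.06 (limma, SE 0.67, adjusted p = 0.086) was not called, and 2 of its CTL values did not exceed 3 reads. Col6a4, which did not pass the filter, was at 0.0451, 0.0467 and 0.136 CPM in the CTL libraries and 0.237, 0.873 and 0.408 in the Nelfb-/- libraries. The other member under the filter was Col26a1, at 0.225, 0.0933 and 0.136 CPM in the CTL libraries and 0.332, 0.640 and 1.02 in the Nelfb-/- libraries. In both the groups were apart, and neither was tested.

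**Figure D4:**
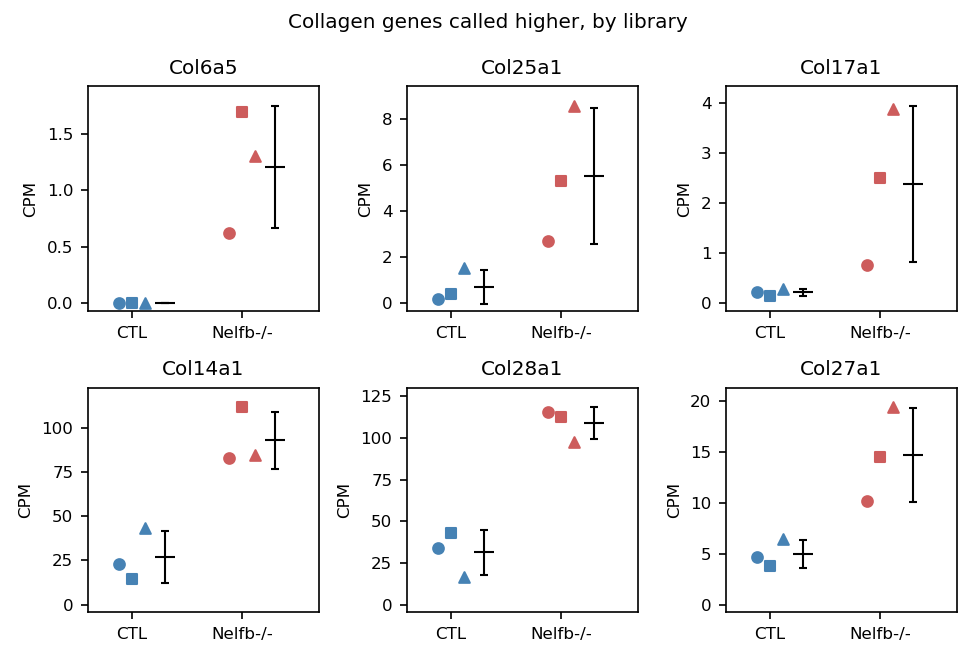
CPM of the 6 collagen genes called higher in Nelfb-/- cells, with 1 point for each library (circle, square and triangle for replicates 1, 2 and 3) and the mean ± SD (n = 3) beside them in black. In each panel the 3 Nelfb-/- points lie above the 3 CTL points, and Col28a1 is the panel in which CTL replicate 3 was lowest and Nelfb-/- replicate 1 highest of its group.

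Col28a1 (chromosome 6 from 7997808 to 8192617), a collagen known from Schwann cells of peripheral nerve, was at 34.0, 43.2 and 16.6 CPM in the CTL libraries and 116, 113 and 97.8 in the Nelfb-/- libraries. The means were 31.2 ± 13.5 and 109 ± 9.68 CPM (SD, n = 3), with a log2 fold change of 1.90 (limma, SE 0.35, adjusted p = 0.017). Unlike the abundant chains it was lowest in CTL replicate 3. The adjusted p was 0.053 to 0.068 without CTL replicate 1, Nelfb-/- replicate 2 or Nelfb-/- replicate 3, and 0.032 without CTL replicate 2. Of the Schwann cell markers, Sox10 was at 6.45 to 7.93 CPM over the CTL libraries and 41.2 to 50.9 over the Nelfb-/- libraries, and Erbb3 at 3.31 to 5.44 and 27.1 to 31.5 CPM, both called higher. S100b, at 0.98 to 4.96 and 1.66 to 5.65 CPM, was not called. The part of these cells in the Col28a1 value was not tested. The 250 bases before its RefSeq start (GRCm38.p6, minus strand, chr6:8192618-8192867) held none of the 3 motifs searched, and are printed for comparison with the others.
Col28a1: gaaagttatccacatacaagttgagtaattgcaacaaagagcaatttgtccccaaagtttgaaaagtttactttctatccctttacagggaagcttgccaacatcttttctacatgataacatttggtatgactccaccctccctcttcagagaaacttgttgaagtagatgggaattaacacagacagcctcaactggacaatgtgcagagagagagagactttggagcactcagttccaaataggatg

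The transmembrane collagens Col17a1 and Col25a1 were called at low levels. Col17a1, the hemidesmosome collagen that anchors basal keratinocytes, was at 0.225, 0.140 and 0.272 CPM in the CTL libraries and 0.759, 2.50 and 3.88 in the Nelfb-/- libraries, with a log2 fold change of 3.0 (limma, SE 0.65, adjusted p = 0.028). The sum of 5 keratinocyte markers was 3.25 to 3.27 CPM over the CTL libraries and 7.63, 15.5 and 18.7 CPM in Nelfb-/- replicates 1, 2 and 3, with 2 of 5 called higher (Krt14 and Dsp). The Nelfb-/- libraries stood in the same order in this sum as in Col17a1, although the keratinocyte marker Trp63 was highest in Nelfb-/- replicate 1 (3.22 CPM). The part of keratinocytes in the value was not tested. Col25a1, known from neurons and from developing muscle, was at 0.180, 0.373 and 1.53 CPM in the CTL libraries and 2.70, 5.30 and 8.57 in the Nelfb-/- libraries, with a log2 fold change of 3.25 (limma, SE 0.79, adjusted p = 0.038). The sum of 5 skeletal muscle markers was 8.77 to 11.1 CPM over the CTL libraries and 66.1, 38.5 and 38.2 CPM in Nelfb-/- replicates 1, 2 and 3, with 3 of the 4 tested called higher, and was highest in the Nelfb-/- library in which Col25a1 was lowest. Its part was not tested. Both calls were lost without CTL replicate 1, CTL replicate 2, Nelfb-/- replicate 2 or Nelfb-/- replicate 3, with adjusted p values of 0.085 to 0.11 for Col17a1 and 0.11 to 0.14 for Col25a1. The call of Col17a1 was also lost with precision weights (limma, adjusted p = 0.061). The size of both fold changes depends on the added read. With 0.5 and 5 reads added the log2 values were 3.11 and 2.36 for Col17a1 and 3.32 and 2.80 for Col25a1. Col23a1, the other transmembrane member, was at 1.96 to 2.89 CPM over the CTL libraries and 2.70 to 6.23 over the Nelfb-/- libraries (log2 fold change 0.91, limma, adjusted p = 0.16).

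None of the remaining members of this class was called, and the groups overlapped in each. Col18a1, a basement membrane multiplexin that releases endostatin, was at 168, 153 and 426 CPM in the CTL libraries and 400, 682 and 570 in the Nelfb-/- libraries (log2 fold change 1.28, SE 0.43, limma, adjusted p = 0.092, 0.011 without CTL replicate 3 and 0.082 to 0.26 without any other single library). Its relative Col15a1 was at 138, 125 and 968 CPM in the CTL libraries and 117, 634 and 500 in the Nelfb-/- libraries (log2 fold change 0.39, SE 0.96, limma, adjusted p = 0.82), and CTL replicate 3 was the highest of all. Col8a1, a short-chain collagen of vessel walls and endothelial sheets, was at 15.8, 40.1 and 106 CPM in the CTL libraries and 70.9, 249 and 251 in the Nelfb-/- libraries (log2 fold change 2.01, SE 0.79, limma, adjusted p = 0.13, 0.046 without CTL replicate 3 and 0.068 to 0.33 without any other). Its partner Col8a2, which was not tested against it, was at 1.22 to 7.62 CPM over the CTL libraries and 0.474 to 8.85 over the Nelfb-/- libraries (log2 fold change 0.04, SE 1.17), and its sign turned to -0.03 with median-of-ratios scaling and to -0.27 with quantile scaling. Col7a1, the anchoring fibril collagen that ties the epidermal basement membrane to the dermis, was at 16.5, 21.5 and 51.6 CPM in the CTL libraries and 35.8, 57.7 and 62.5 in the Nelfb-/- libraries (log2 fold change 0.94, SE 0.45, limma, adjusted p = 0.20, 0.024 without CTL replicate 3 and 0.14 to 0.47 without any other).

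Of 10 ratios between chains measured in the same library, the groups were apart in 3 and overlapped in 7. The pairs were chosen, no share over all pairs of genes was computed, and these counts are a description. Of the single genes tested, 22.0% were apart with Nelfb-/- higher and 16.1% with Nelfb-/- lower. Per kb of exon, the ratio of Col3a1 to Col1a1 was 0.273, 0.263 and 0.271 in CTL replicates 1, 2 and 3 and 0.439, 0.612 and 0.549 in Nelfb-/- replicates 1, 2 and 3. CTL replicate 3, whose Col1a1 level was over 4 times that of the other CTL libraries, thus had a ratio between theirs, and the groups (0.269 ± 0.005 and 0.533 ± 0.088, SD, n = 3) did not overlap. The ratio of Col4a1 to Col4a2 was 1.40 to 1.45 in CTL and 1.59 to 1.70 in Nelfb-/- cells, and that of Col4a5 to Col4a1 was 0.0243 to 0.0296 in CTL and 0.00769 to 0.0102 in Nelfb-/- cells, in both cases without overlap. The ratio of Col1a1 to Col1a2 overlapped, at 1.92, 1.98 and 2.76 in CTL and 2.19, 2.85 and 2.91 in Nelfb-/- libraries. The ratios of Col6a1 to Col6a2 (1.86 to 3.15 in CTL, 1.51 to 2.05 in Nelfb-/- cells), Col5a1 to Col5a2 (0.603 to 2.01 and 0.934 to 1.91) and Col12a1 to Col1a1 (0.137 to 0.361 and 0.181 to 0.415) overlapped too. So did those of Col6a3 to Col6a1 (0.267 to 0.485 in CTL, 0.395 to 0.577 in Nelfb-/- cells), Col5a1 to Col1a1 (0.159 to 0.239 and 0.185 to 0.212) and Col14a1 to Col12a1 (0.0262 to 0.0549 and 0.0350 to 0.0686).

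**Figure D5:**
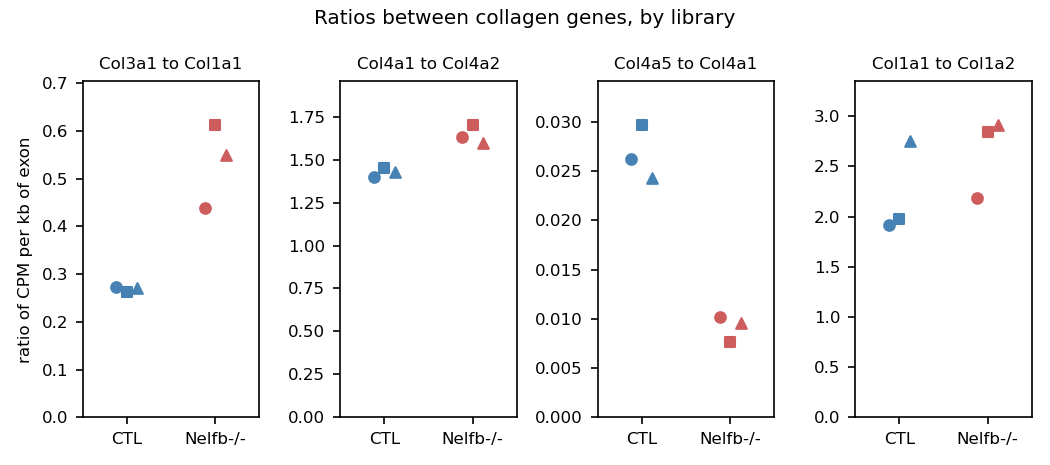
Ratios of CPM per kb of exon between pairs of collagen genes, with 1 point for each library (blue, CTL; red, Nelfb-/-; circle, square and triangle for replicates 1, 2 and 3; axes start at 0). The groups were apart for Col3a1 to Col1a1 (0.263 to 0.273 against 0.439 to 0.612), Col4a1 to Col4a2 and Col4a5 to Col4a1, and overlapped for Col1a1 to Col1a2.

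The make-up of the collagen reads was described by each gene's share of them. By this share Col3a1 held 5.09%, 4.38% and 7.46% in CTL and 7.88%, 17.3% and 16.6% in Nelfb-/- libraries, without overlap. Col6a1 held 8.54%, 8.55% and 7.10% in CTL and 5.05%, 4.35% and 3.86% in Nelfb-/- libraries, and Col5a3 1.34% to 1.68% and 0.775% to 1.07%, both lower in every Nelfb-/- library. Among the 33 tested genes, the Nelfb-/- shares were all above the CTL shares in 6 and all below in 6, while in 21, Col1a1 and Col1a2 among them, the groups overlapped. The shares of a library add up to the whole, so that a larger share of some members lowers that of others, and these counts are a description only. Per kb of exon the 3 leading genes were Col1a1, Col4a1 and Col6a1 in CTL (means of 532 ± 509, 407 ± 116 and 388 ± 225 CPM per kb, SD, n = 3) and Col1a1, Col3a1 and Col4a1 in Nelfb-/- cells (1339 ± 808, 755 ± 496 and 696 ± 74.5 CPM per kb, SD, n = 3). The spreads of neighbours in these orders overlapped across libraries. Within each Nelfb-/- library, however, Col1a1 exceeded Col3a1, with ratios of Col3a1 to Col1a1 of 0.439, 0.612 and 0.549. Col3a1 was the eighth collagen gene in CTL cells, at 144 ± 138 CPM per kb.

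The genes that process, secrete, cross-link and bind collagen were described by a list of 57 genes, 53 of which were tested. Of these, 2 were called higher and 1 lower, the median log2 fold change was 0.43, and the groups overlapped in 49. Over all genes tested 7.58% were called higher and 3.64% lower, the median was 0.07, and 61.9% overlapped. Bmp1, the procollagen C-proteinase that releases the fibrillar chains for assembly, was at 47.9, 52.6 and 105 CPM in the CTL libraries and 176, 442 and 402 in the Nelfb-/- libraries (log2 fold change 2.29, SE 0.45, limma, adjusted p = 0.020), and its adjusted p was 0.068 to 0.087 without CTL replicate 1, CTL replicate 2, Nelfb-/- replicate 2 or Nelfb-/- replicate 3. Lair1, a collagen receptor of immune cells, was at 0.225, 0.140 and 0.374 CPM in the CTL libraries and 7.68, 7.97 and 9.55 in the Nelfb-/- libraries (log2 fold change 4.93, SE 0.38, limma, adjusted p = 0.0033). Of the 6 macrophage markers given above, 5 were called higher as well, and their part in the Lair1 value was not tested.

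Tgm2, a transglutaminase that cross-links matrix proteins, was the gene called lower, at 482, 597 and 877 CPM in the CTL libraries and 177, 241 and 235 in the Nelfb-/- libraries (log2 fold change -1.55, SE 0.26, limma, adjusted p = 0.014, rising to 0.055 without CTL replicate 2 or 0.064 without Nelfb-/- replicate 3). Loxl1, a lysyl oxidase of the same group, passed the limit on p alone (log2 fold change 0.90, SE 0.22, limma, adjusted p = 0.039). It missed that limit without the abundance trend (limma, adjusted p = 0.054) and without CTL replicate 1, CTL replicate 2, Nelfb-/- replicate 2 or Nelfb-/- replicate 3 (limma, adjusted p = 0.12 to 0.14). Of the 20 genes for chain hydroxylation, glycosylation and folding, 0 were called with limma (2 at an unadjusted p under 0.05), and all 20 overlapped between groups. In 19 of these 20, as in the abundant collagen genes, CTL replicate 3 was the highest CTL library and Nelfb-/- replicate 1 the lowest Nelfb-/- library. Serpinh1, the collagen chaperone of the endoplasmic reticulum, was one of them, at 553, 488 and 1561 CPM in the CTL libraries and 468, 1623 and 1611 in the Nelfb-/- libraries (log2 fold change 0.51, SE 0.65, limma, adjusted p = 0.62).

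RefSeq promoter windows were matched by symbol for 29 of the 35 collagen genes (31 windows of 250 bases, GRCm38.p6). The letters TATAAA, searched on both strands, were found in 3 of these windows, against 12.4% of all 32851 windows. CCAAT was found in 12 of the 31 (33.8% of all windows) and GGGCGG in 21 of the 31 (32.7% of all windows), where the collagen windows had a median of 59.2% G and C against 52.4% in all. Of the 5 windows that belong to called genes, 1 held TATAAA, 2 CCAAT and 3 GGGCGG. These matches are descriptions of sequence, and no binding was measured here.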

How the data were processed

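The table deposited by the authors held 6 columns of values in CPM, each summing to 1e+06 once an offset of 0.0001 was subtracted. The submitters' processing notes name STAR 2.7, Partek 9.0.20.0202 and mm10, and the study's methods name DESeq2. The counting and its strand setting are not given in the sources used here. Whole multiples of 1 read (tolerance 0.02) made up 70.0% to 72.8% of the low values (at most 20 reads), too few to recover counts, and no count test was run. CPM were multiplied by a common depth (22.3 M reads; M, 1e+06), and log2(value + 1) was tested with limma 3.58.1 (R 4.3.3, abundance trend, Benjamini-Hochberg) for genes whose mean reached 10 reads, after a check on simulated data. The simulated replicates shared the same gene means within each group and held no outlying library. That check therefore does not cover libraries such as CTL replicate 3 or Nelfb-/- replicate 1. The listed ends, 1 base past the annotated ones, were corrected. Levels per kb used the exon length of GENCODE vM21 (GRCm38). After each group's mean of every gene was subtracted, same-numbered libraries correlated at 0.52, -0.39 and 0.52. Differently numbered libraries ranged from -0.63 to 0.54. Replicate numbers were not taken as pairs.

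Values in every library are given for called genes, types I, III, IV, V and VI, genes with groups apart, and the called genes of the processing list, and some others were added after their values were seen. Members and lists were chosen with earlier results of these data known. There were 15 alternatives. Of the genes in the marker lists, 1 is not reported here.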

Additional observations from a re-analysis of the deposited data

How the results depend on the processing

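The same 6 collagen genes were called higher under both other pseudocounts, both other filters, both other scalings and without the abundance trend, and 5 of them with precision weights (without Col17a1). The scalings moved the median log2 fold change of all genes from 0.07 to -0.0008 (median-of-ratios) and -0.07 (quantile). Leaving out 1 library at a time gave 0 to 12 collagen genes called higher, 290 to 1703 of all genes called higher (1232 with all libraries) and 136 to 776 lower (592), 1 to 8 processing and receptor genes higher (2) and 0 to 1 lower (1), and class medians of 0.78 to 1.63 (other) and 0.65 to 1.45 (FACIT). With replicate number as a block, 10 collagen genes were called higher (adding Col12a1, Col3a1, Col6a6 and Col8a1), 1 lower (Col4a6), and 5 processing and receptor genes higher, beside 1505 of all genes higher and 670 lower. The replicate numbers were not taken as pairs in the main results. The log2 fold change of Col8a2 changed sign with median-of-ratios scaling (-0.026), with quantile scaling (-0.27) and without 4 of the libraries in turn (leave-one-out range -0.78 to 1.27), and that of Col15a1 without CTL replicate 1 (-0.06), CTL replicate 2 (-0.13) or Nelfb-/- replicate 2 (-0.08), with a leave-one-out range of -0.13 to 1.35. The cause was not tested. With 3 libraries in each group an exact permutation test of 1 gene cannot give a p below 0.1. Intervals of counting error were not computed, since reads were not recovered as whole numbers, and values of members near 3 reads rest on few reads.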
